A study of Mus musculus with 4 samples.

Results

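Amino acid transporters are described here by 8 genes that bring neutral and cationic amino acids across the plasma membrane of T cells: Slc7a5, Slc3a2, Slc1a5, Slc7a1, Slc7a6, Slc38a1, Slc38a2 and Slc43a2. They were chosen by name and function, not by an expression value, but with earlier results of these data known. All 8 were found by gene symbol, in 11 of the 19291 transcript rows of the deposited tables, and the row with the highest mean stood for each gene, among 13724 named genes in all. RNA-seq had been run on regulatory T (Treg) cells, which express Foxp3 and hold immune responses in check, sorted from the spleens of C57BL/6 mice. The wild type (WT) group held 2 libraries, and the other 2 came from mice with an Nsd2 Treg conditional knock out (cKO). Nsd2 encodes an enzyme that methylates a lysine of histone H3. RNA of 3 or more mice was combined for every library, so replicates compare pools and p-values measure a spread that may be partly technical. The labels give no age, no treatment, no deleted exons and no driver of the conditional deletion.

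T cells take up amino acids through a small number of carriers, and the supply of leucine, glutamine and arginine feeds protein synthesis and the growth kinase complex mTORC1. The heavy chain Slc3a2 (CD98) carries no amino acids itself: it pairs through a disulfide bond with a light chain such as Slc7a5 or Slc7a6 and brings it to the cell surface. Slc7a5 (LAT1) then exchanges intracellular glutamine for leucine and other large neutral amino acids, so its work depends on glutamine brought in by carriers such as Slc1a5, Slc38a1 and Slc38a2. Several of these genes are known targets of Myc and of Atf4, and activated T cells are known to raise them.

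Members of the same family were far enough apart in sequence to be told apart by reads of 50 nt. The closest coding stretches of 50 nt between the paired-family members are shown for that reason, 5′ to 3′ on the coding strand, read from GENCODE M21 transcripts (GRCm38), with capitals at the bases that differ between the pair. Slc7a5 and Slc7a6 differed at 9 of the 50 bases at their closest point, in exon 1 of Slc7a5 (chr8:121907274-121907323, minus strand) and exon 2 of Slc7a6 (chr8:106179403-106179452, plus strand), and Slc38a1 and Slc38a2 at 8 of 50, in exon 4 of each (chr15:96609903-96609952 and chr15:96697969-96698018, both on the minus strand).
Slc7a5: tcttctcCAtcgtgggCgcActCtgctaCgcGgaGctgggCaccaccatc
Slc7a6: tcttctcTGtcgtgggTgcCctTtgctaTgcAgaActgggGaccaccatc
Slc38a1: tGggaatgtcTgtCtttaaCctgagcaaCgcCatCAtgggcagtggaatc
Slc38a2: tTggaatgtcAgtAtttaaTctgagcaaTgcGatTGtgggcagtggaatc
The longest identical run in the coding sequences was 14 nt in the first pair and 17 nt in the second. Slc7a1, a more distant relative of the light chains, differed from Slc7a5 at 16 of 50 bases at its closest point and from Slc7a6 at 18. Over whole transcripts, Slc7a5, Slc3a2, Slc1a5, Slc7a6, Slc38a1 and Slc38a2 shared 0 windows of 50 nt with a transcript of any other gene. Slc7a1 shared 16 of 7130 windows (0.224%). Slc43a2, for which the longest coding transcript was used because the deposited accession had no match, shared 0.705% of windows on its own strand and 6.64% on the other strand, 410 of the latter 471 windows with the antisense transcript Gm45606. No source used here says whether the authors counted by strand, so the level of Slc43a2 may hold reads of that transcript.

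The transporters were expressed at moderate to high levels in both genotypes. Levels are in RPKM, read numbers divided by transcript length and library depth, so genes can be compared with each other. Slc1a5 was the most abundant, with a mean over the 4 libraries of 116 RPKM, which ranked 342 among the 10413 genes tested, those averaging 1 RPKM or more. Slc38a2 followed at 31.9 RPKM, Slc3a2 at 29.1, Slc38a1 at 22.3, Slc43a2 at 16.9, Slc7a5 at 16.6, Slc7a6 at 13.0 and Slc7a1 at 11.6 RPKM. The lowest of the 8, Slc7a1, stood at percentile 51.5 of the tested genes and Slc7a5 at percentile 63.7. In this order the ranges over the 4 libraries overlapped between Slc38a2 and Slc3a2, between Slc43a2 and Slc7a5, and between Slc7a6 and Slc7a1, and the other neighbours were apart. Slc1a5 alone made up 40.1% to 48.6% of the summed RPKM of the 8 genes in a library.

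**Figure D1:**
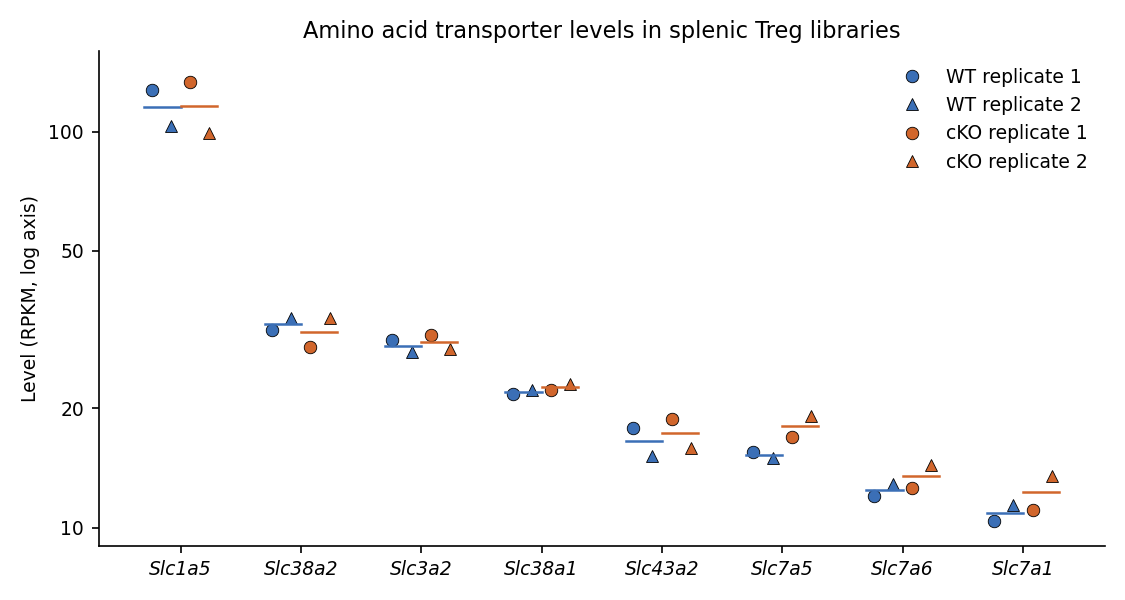
Level of each transporter gene in RPKM on a log axis, with 1 symbol per library (circles for the libraries numbered 1, triangles for those numbered 2; blue WT, orange cKO) and a short line at each genotype's mean of 2 libraries. Slc1a5 lies between 99.1 and 133 RPKM, above the other 7 genes, which lie between 10.4 and 33.9 RPKM.

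The knockout was compared with wild type to see whether splenic Treg cells labelled as Nsd2 conditional knock out carry other levels of these carriers. The cKO libraries still held Nsd2 transcript, at a mean of 0.542 times the WT level, as given with the marker genes. None of the 8 genes passed the test: limma on log2(RPKM + 1), with Benjamini-Hochberg adjustment over all 10413 genes, gave an adjusted p of 0.9999 for each member. The same fit called 0% of all genes at an adjusted p of 0.05, and 3.08% (321 genes, 0 of them members) had an unadjusted p below 0.05. The 95% interval of each difference is given below, since a p that misses the threshold does not show that the genotypes are alike. In bulk RNA a change in the share of cells and a change in RNA per cell cannot be told apart. In 2 members each cKO library exceeded each WT library, in 0 they were lower, and in 6 the groups overlapped. Over all genes tested, 17.3% were above and 9.08% below in this sense.

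Slc7a5, the light chain that imports leucine, showed the largest difference. Replicates 1 and 2 gave 15.5 and 15.0 RPKM for WT, against 16.9 and 19.2 RPKM for cKO. Both cKO libraries were above both WT libraries, with the highest value in cKO replicate 2. Mean levels were 15.2 ± 0.359 RPKM for WT and 18.0 ± 1.57 RPKM for cKO (SD, n = 2 each), so the cKO mean was 18.5% above that of WT. The difference, cKO minus WT in log2(RPKM + 1), came to 0.23 with a standard error of 0.13 and a 95% interval from -0.078 to 0.54, which is 0.947-fold to 1.45-fold, and limma gave an unadjusted p of 0.118. Of the 8 members, Slc7a5 was the only one whose genotype difference was larger than the difference between replicates in both genotypes. The share of all genes for which this holds was not counted. A genotype difference at least as large as that of Slc7a5, in either direction, was found in 13.8% of all tested genes. Without cKO replicate 2 the difference was 0.15. The steps between low values gave depths of 19125000 to 21230000 reads per library, at which Slc7a5 was measured with 1007 to 1430 reads, a counting error of 2.64% to 3.15% per library. The cKO replicates of this gene differed by 3.11 times their counting error and the WT replicates by 0.758 times. Counting error covers the sampling of reads only.

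Slc3a2, the heavy chain shared by the light chains, did not show the same separation. Slc3a2 measured 29.7 and 27.8 RPKM in the WT pair and 30.7 and 28.3 RPKM in the cKO pair. The groups overlapped, and in each genotype the library numbered 1 was the higher one. The difference was 0.035 with a 95% interval of -0.27 to 0.34, or 0.830-fold to 1.27-fold. A second Slc3a2 transcript row, NM_001161413.1, had lower levels (25.6 and 23.9 RPKM for WT, 26.0 and 24.5 RPKM for cKO) and nearly the same cKO to WT ratio, 1.02 against 1.03 for NM_008577.4, the row used. How the authors divided reads between such rows is unknown, so they are not separate measurements.

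Slc7a6 (y+LAT2), the light chain that exchanges cationic for neutral amino acids, was the second light chain in abundance. Slc7a6 measured 12.0 and 12.9 RPKM in the WT pair and 12.6 and 14.4 RPKM in the cKO pair. Its groups overlapped, again with the highest value in cKO replicate 2, and the difference was 0.11 (95% interval -0.21 to 0.43), or 0.019 without cKO replicate 2. Summed, Slc7a5 and Slc7a6 came to 27.5 and 27.8 RPKM in WT and to 29.6 and 33.6 RPKM in cKO. The level of the heavy chain row used, divided by this sum, was 1.08 and 0.999 in WT and 1.04 and 0.843 in cKO. In RPKM that row was close to the sum of Slc7a5 and Slc7a6 in 3 libraries and lower in cKO replicate 2. The division of reads between the Slc3a2 rows is unknown, so these values hold for that row, not for the whole gene. The ratio of Slc7a5 to Slc7a6 was 1.29 and 1.16 in WT and 1.34 and 1.33 in cKO. These ratios were formed after the values were seen, and with 2 libraries against 2 no exact permutation test of them can pass 0.05, so they carry no test.

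Among the glutamine carriers, Slc1a5 and Slc38a2 differed more between replicates of either genotype than between genotypes. Slc1a5 (ASCT2), the sodium-dependent carrier of glutamine, serine and other neutral amino acids, measured 127 and 103 RPKM in the WT pair and 133 and 99.1 RPKM in the cKO pair. The library numbered 1 was the high one in both genotypes, and the WT values fell inside the range of the cKO values. The genotype means were 115 ± 17.1 and 116 ± 24.1 RPKM (SD, n = 2 each), a ratio of 1.01, and the difference was 0.0046 with a 95% interval of -0.47 to 0.48. With 5453 to 7106 reads per library, the WT replicates differed by 11.6 times and the cKO replicates by 16.7 times their counting error.

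Slc38a1 and Slc38a2 (SNAT1 and SNAT2), sodium-coupled carriers of small neutral amino acids, are neighbours on chromosome 15 (96571418 to 96643438 and 96687392 to 96699728). Slc38a1 had the steadiest level of the 8: 21.7 and 22.3 RPKM in WT, 22.3 and 23.1 RPKM in cKO. The cKO libraries were above the WT libraries, but only barely, with 22.280 RPKM in cKO replicate 1 against 22.274 RPKM in WT replicate 2. Its genotype difference of 0.041 was above the replicate difference in WT (0.034) and below that in cKO (0.048). Its 3 transcript rows gave cKO to WT ratios of 1.03 to 1.04. Slc38a2, which cells raise when starved of amino acids, measured 31.6 and 33.8 RPKM in the WT pair and 28.5 and 33.9 RPKM in the cKO pair. It was the only member with a difference below 0 (-0.068, 95% interval -0.41 to 0.27), its groups overlapped, and cKO replicate 1 was the low library.

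Slc7a1 (CAT1), the main carrier of arginine and lysine, measured 10.4 and 11.4 RPKM in the WT pair and 11.1 and 13.5 RPKM in the cKO pair. The groups overlapped, the highest value was again in cKO replicate 2, and the difference was 0.15 (95% interval -0.21 to 0.51), or 0.021 without cKO replicate 2. Slc43a2 (LAT4), a sodium-independent carrier of leucine, isoleucine, valine, methionine and phenylalanine, measured 17.8 and 15.2 RPKM in the WT pair and 18.8 and 15.8 RPKM in the cKO pair. Both libraries numbered 1 were above both numbered 2, and the difference was 0.064 (95% interval -0.30 to 0.43). Slc43a2 and Slc7a5 both carry large neutral amino acids, and their levels overlapped in these cells.

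**Figure D2:**
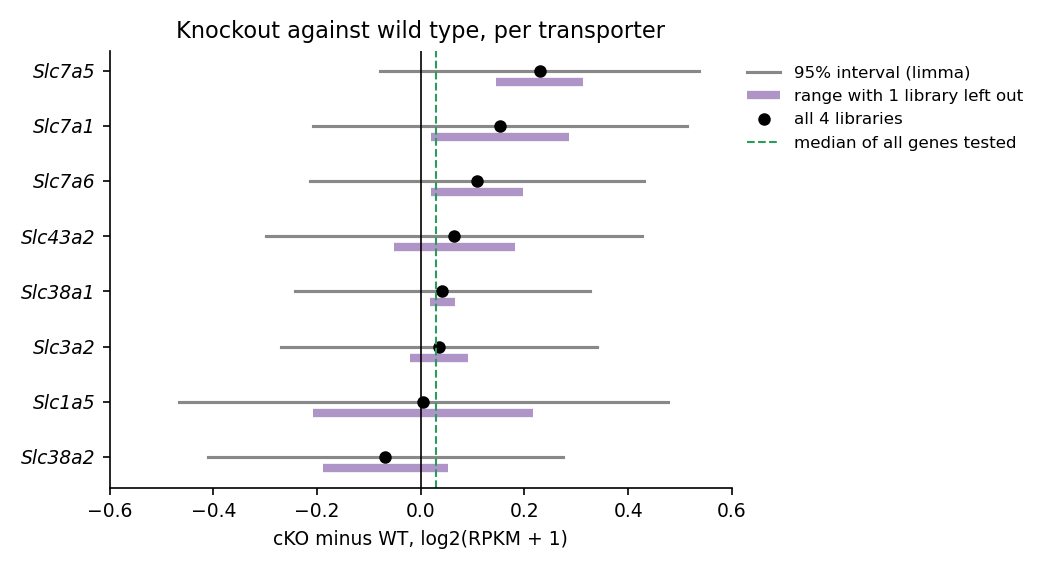
Difference of each transporter between cKO and WT on the log2(RPKM + 1) scale (black point), its 95% interval from limma (grey line), the range of the difference with 1 library left out in turn (purple bar) and the median of all genes tested (dashed line). Each interval includes 0, and the bars of Slc43a2, Slc3a2, Slc1a5 and Slc38a2 extend to both sides of 0.

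As a group, 7 of the 8 genes had a difference above 0, where 59.2% of all tested genes did. The median difference was 0.053 against 0.029 over all genes. With the libraries scaled to each other by the median of ratios, 5 of 8 were above 0 with a median of 0.018, and over all genes 48.5% were above 0. Without WT replicate 2, 4 of 8 were above 0 and the median was 0.024. The summed RPKM of the 8 genes was 266 and 241 in WT and 274 and 247 in cKO, so the sum followed the replicate number more than the genotype. Without Slc1a5 the other 7 summed to 139 and 138 RPKM in WT and to 141 and 148 RPKM in cKO.

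The members fell into sets by how they varied over the libraries. Slc1a5, Slc43a2 and Slc3a2 were higher in the library numbered 1 in both genotypes, while Slc7a1, Slc7a6, Slc38a1 and Slc38a2 were higher in the library numbered 2. Slc7a5 was the exception, with the libraries numbered 1 higher in WT and lower in cKO. Such a shared sign was common: 77.7% of all tested genes had it, 3968 genes with number 1 higher and 4118 with number 2 higher. The labels do not say what the replicate numbers stand for. The 3 genes whose values lay nearest to those of Slc7a5 over the 4 libraries were Ewsr1, Cwc27 and Stambp. Those nearest to Slc3a2 were BC005764, Armc7 and Flii, and those nearest to Slc1a5 were Rexo1, Stub1 and Klhdc4. Likeness was the Euclidean distance between log2(RPKM + 1) values centred on the gene's mean, over the 8201 genes averaging 4 RPKM or more, and with 4 libraries many genes lie close: 2324 genes were nearer to Slc7a5 than a flat profile was.

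**Figure D3:**
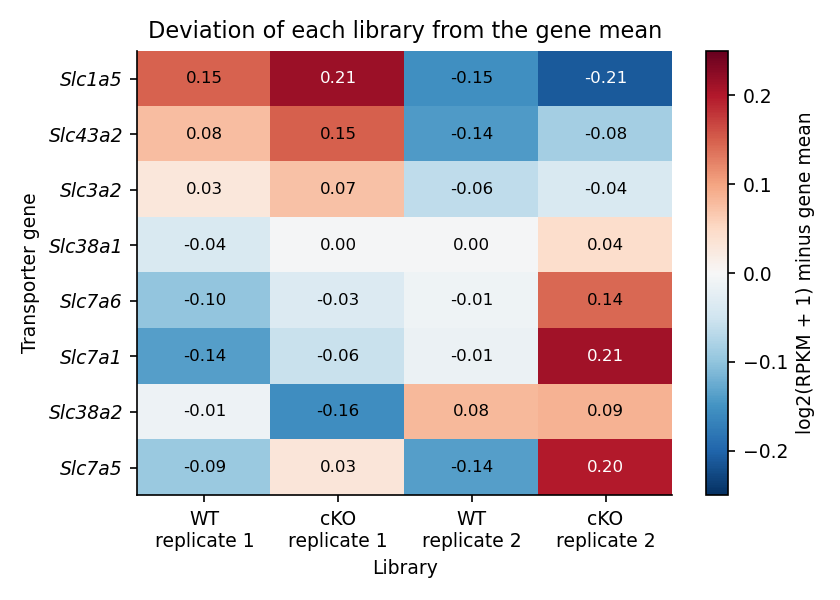
Deviation of each library from the gene's mean over the 4 libraries on the log2(RPKM + 1) scale, with genes in rows and libraries in columns ordered by replicate number (red higher, blue lower). Slc1a5 is at 0.15 and 0.21 in the libraries numbered 1 and at -0.15 and -0.21 in those numbered 2, and Slc7a5 is highest in cKO replicate 2 at 0.20.

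The other light chains of Slc3a2 were less abundant than any member. Of those listed only Slc7a10 reached the level tested, at percentile 18.6 of the tested genes. Slc7a7, Slc7a8 and Slc7a11, the cystine carrier, had means of 0.678, 0.0696 and 0.0195 RPKM and were below the level tested. Slc7a10 (Asc-1), a carrier of small neutral amino acids, measured 3.31 and 2.06 RPKM in the WT pair and 4.80 and 3.98 RPKM in the cKO pair. The cKO libraries were above the WT libraries, with a mean ratio of 1.63, a difference of 0.56 (standard error 0.21) and an unadjusted limma p of 0.0353 that did not pass adjustment (adjusted p = 0.9999). Without WT replicate 2 the difference was 0.32.

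Of 25 plasma membrane transporters of amino acids other than the 8, 15 had a row, 4 were tested and 0 passed. This list again holds Slc7a7, Slc7a8, Slc7a10 and Slc7a11, and Slc7a10 is among the 4 tested. The 11 measured below 1 RPKM included Slc1a4 (ASCT1), the closest relative of Slc1a5, at a mean of 0.156 RPKM. Slc6a6, the taurine carrier, was the most abundant, with 18.9 and 18.9 RPKM in the WT pair and 21.8 and 21.1 RPKM in the cKO pair, a difference of 0.17 with a standard error of 0.11. Slc43a1 (LAT3), the relative of Slc43a2, measured 1.53 and 1.44 RPKM in the WT pair and 2.28 and 2.20 RPKM in the cKO pair, a mean ratio of 1.51 with a difference of 0.38. Limma gave it an unadjusted p of 0.0326, which did not pass adjustment (adjusted p = 0.9999). The cKO libraries were above the WT libraries for both genes, and Slc43a1 was far less abundant than any of the 8. Slc3a1 (rBAT), the heavy chain related to Slc3a2 and named here after its values were seen, lay on the other side, at 1.98 and 2.20 RPKM in the WT pair and 1.35 and 1.59 RPKM in the cKO pair. Both cKO libraries were below both WT libraries, with a difference of -0.32 and a standard error of 0.15.

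The lysosomal and intracellular transporters had differences below 0 more often than above. All 10 with a row were tested and 0 passed. Of these, 4 had a difference above 0 (59.2% of all genes did) and 4 had both cKO libraries below both WT libraries (9.08% of all genes did). Slc38a9, which senses arginine in the lysosome for mTORC1, measured 4.02 and 3.91 RPKM in the WT pair and 3.23 and 3.76 RPKM in the cKO pair, a difference of -0.15 with a standard error of 0.14 that was -0.061 without cKO replicate 1 and -0.23 without cKO replicate 2. Slc15a4, a lysosomal carrier of histidine and small peptides, measured 8.67 and 8.10 RPKM in the WT pair and 7.94 and 7.16 RPKM in the cKO pair. Slc38a10 was the most abundant at 27.2 RPKM and Slc36a1, which exports amino acids from the lysosome, was at 8.16 RPKM, both with overlapping groups. The median difference was -0.040, and -0.073 with median-of-ratios scaling, and with 1 library left out it ran from -0.12 (without WT replicate 2) to -0.019 (without WT replicate 1).

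**Figure D4:**
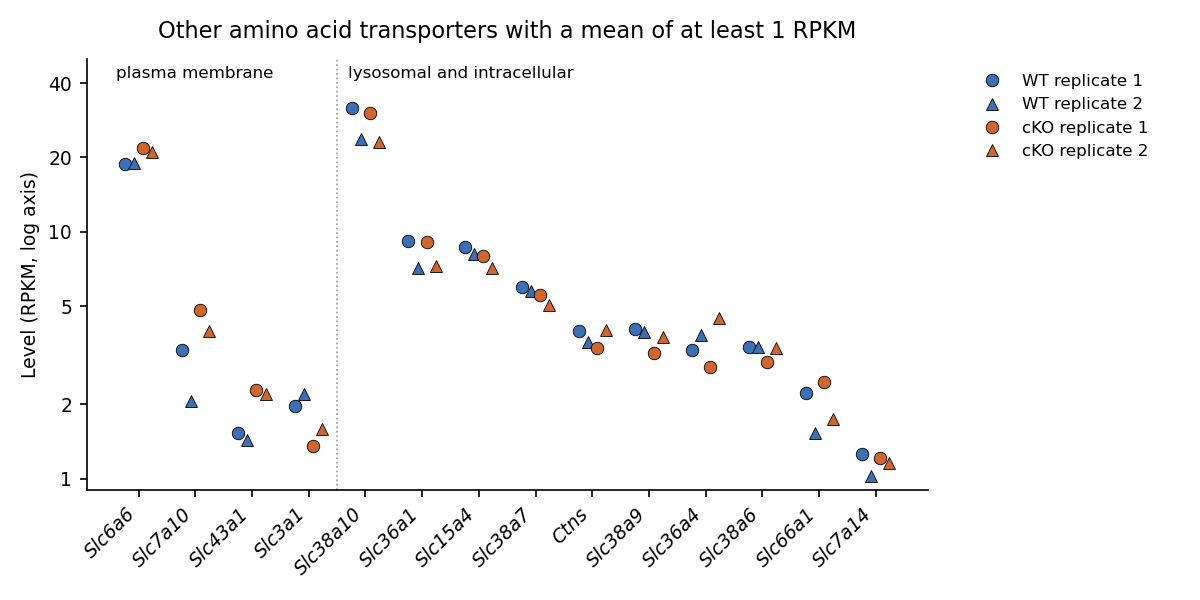
Level in RPKM on a log axis of the 14 other amino acid transporters with a mean of at least 1 RPKM, 4 of the plasma membrane on the left and 10 lysosomal or intracellular on the right, with 1 symbol per library. The orange symbols (cKO) of Slc6a6, Slc7a10 and Slc43a1 lie above the blue ones (WT), and those of Slc3a1, Slc38a6, Slc38a7, Slc38a9 and Slc15a4 lie below.

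Genes that sense amino acids and drive mTORC1 were measured almost completely, with 36 of 37 tested and 0 passed. Of these, 25 had a difference above 0, where 59.2% of all genes did. In 4 both cKO libraries were above both WT libraries (17.3% of all genes) and in 1 they were below (9.08% of all genes). Both of these were smaller shares than over all genes. The median was 0.047, which became 0.014 with median-of-ratios scaling and 0.011 without cKO replicate 1. Castor1, the cytosolic arginine sensor, measured 14.1 and 12.3 RPKM in the WT pair and 16.7 and 16.2 RPKM in the cKO pair, a difference of 0.30 with a standard error of 0.13. Limma gave it an unadjusted p of 0.0572, which did not pass adjustment (adjusted p = 0.9999). Nprl2, a subunit of the GATOR complex that restrains mTORC1, measured 11.8 and 10.8 RPKM in the WT pair and 15.2 and 12.2 RPKM in the cKO pair. Sesn3, of the sestrin family of stress-induced mTORC1 inhibitors, was the most abundant gene of the list and the one with both cKO libraries below WT, at 54.7 and 59.4 against 48.0 and 52.8 RPKM. Lamtor2, a subunit of the Ragulator scaffold, had a similar mean of 52.5 RPKM with overlapping groups.

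The amino acid response list, built around the transcription factor Atf4 and including it, had 12 of 15 tested genes above 0, where 59.2% of all genes were. Its median was 0.080 and 0 passed. With median-of-ratios scaling 11 of 15 were above 0, where 48.5% of all genes were, and the median was 0.049. Atf4 itself measured 58.2 and 56.3 RPKM in the WT pair and 60.9 and 60.3 RPKM in the cKO pair, a difference of 0.080 with a standard error of 0.12. Phgdh, which starts serine synthesis, measured 45.5 and 37.5 RPKM in the WT pair and 52.1 and 46.0 RPKM in the cKO pair, with the cKO libraries above by a narrow margin. Cebpb, a partner of Atf4, measured 5.89 and 7.81 RPKM in the WT pair and 8.13 and 11.3 RPKM in the cKO pair, a difference of 0.44 with a standard error of 0.20 that was 0.23 without cKO replicate 2 and 0.26 without WT replicate 1. Ddit4, an mTORC1 inhibitor and the most abundant gene of the list, had lower means in cKO, at 187 and 125 against 142 and 91.0 RPKM, with overlapping groups.

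Among the 20 cytosolic tRNA synthetases, which charge tRNAs with amino acids, 18 had a difference above 0 (59.2% of all genes did) and 0 passed. In 9 both cKO libraries were above both WT libraries, where 17.3% of all genes were, and in 0 they were below. The median was 0.063 and the largest difference above 0 was that of Aars, 0.23 with a standard error of 0.14, or 0.13 without WT replicate 2. With median-of-ratios scaling 13 of 20 were above 0 (48.5% of all genes) and the median was 0.028, and without cKO replicate 1 the median was 0.13. Tars measured 17.4 and 17.7 RPKM in the WT pair and 19.7 and 20.9 RPKM in the cKO pair. Vars, the most abundant at 62.3 RPKM, stood below 0 (-0.28, and -0.020 without WT replicate 1) with overlapping groups, and Sars was next at 59.0 RPKM.

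The enzymes that use glutamine, branched-chain amino acids and arginine had 11 of 14 tested genes above 0, where 59.2% of all genes were, and 0 passed. Their median was 0.12, which became 0.082 with median-of-ratios scaling and 0.064 without WT replicate 1. Ass1, which makes argininosuccinate and so lets cells rebuild arginine from citrulline, measured 43.0 and 37.2 RPKM in the WT pair and 51.5 and 49.0 RPKM in the cKO pair, a mean ratio of 1.25 and a difference of 0.32 with a standard error of 0.13. Limma gave it an unadjusted p of 0.0541, which did not pass adjustment (adjusted p = 0.9999). Bckdk, the kinase that shuts off branched-chain amino acid breakdown, measured 7.28 and 5.32 RPKM in the WT pair and 8.72 and 8.34 RPKM in the cKO pair, a mean ratio of 1.35. Glud1, glutamate dehydrogenase, was the most abundant at 51.8 RPKM, with overlapping groups. In the Myc network, 4 of 10 tested genes were above 0 (59.2% of all genes), with a median of -0.050 that became 0.0040 without WT replicate 2. Myc measured 69.2 and 57.1 RPKM in the WT pair and 66.4 and 61.8 RPKM in the cKO pair, so the cKO values lay inside the WT range. Mlxip (MondoA), a glucose-responsive transcription factor of the extended Myc network, measured 38.1 and 29.6 RPKM in the WT pair and 24.2 and 22.8 RPKM in the cKO pair, a difference of -0.50 with a standard error of 0.16, or -0.32 without WT replicate 1. Limma gave it an unadjusted p of 0.0193, which did not pass adjustment (adjusted p = 0.9999). Mxd3 stood at 6.55 and 6.75 against 7.93 and 8.11 RPKM, and Mxd4, the most abundant at 94.0 RPKM, had overlapping groups.

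**Figure D5:**
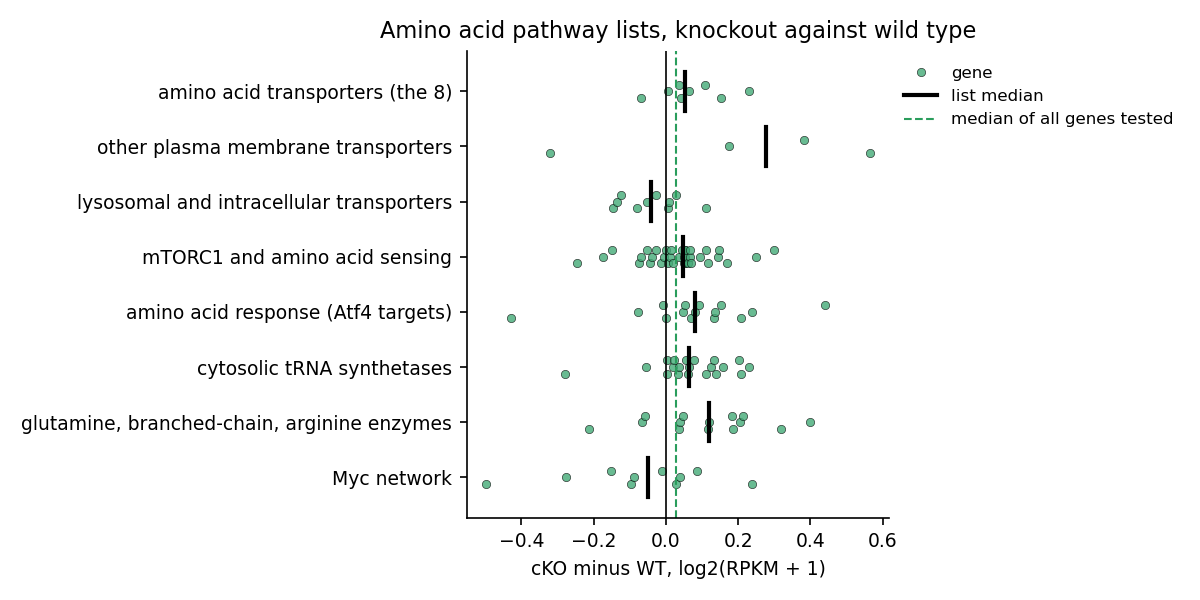
Difference between cKO and WT on the log2(RPKM + 1) scale of each tested gene (green points) in the 8 transporters and 7 further lists, with the list median (black bar) and the median of all genes tested (dashed line at 0.029). The list medians lie between -0.050 for the Myc network and 0.28 for the 4 other plasma membrane transporters.

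The promoter windows on file, from 250 bases before to 50 bases after a transcription start (RefSeq, GRCm38.p6), covered 5 of the 8 members: Slc7a1, Slc7a6, Slc43a2, Slc38a2 and Slc3a2, in 8 windows. Slc7a5, Slc1a5 and Slc38a1 had no entry. The motif CACGTG, the E-box bound by Myc and its relatives, was in 0 of the 8 windows and in 7.15% of all 32851 windows of this length. The motif TGATGNAA, the core of the element bound by Atf4 with C/EBP factors, was searched on both strands and was in 0 of the 8 windows and in 3.97% of all. This says only that these letters are not in these windows. Those of Slc7a6 overlap each other, and 8 windows are too few to compare with the shares over all windows. G and C content ran from 51.7% in a window of Slc7a1 to 76.7% in a window of Slc7a6. The median of all windows was 52.7%.

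The targeted gene and the marker genes were checked in the same tables. Nsd2, listed as Whsc1, measured 6.82 and 7.44 RPKM in the WT pair and 3.46 and 4.27 RPKM in the cKO pair, a mean ratio of 0.542 (limma's adjusted p = 0.9999). Foxp3 was at 113 to 145 RPKM in the 4 libraries, and the summed level of 6 Treg and T cell markers was 841 to 892 RPKM for WT and 836 to 919 RPKM for cKO. The summed level of 3 B cell markers with a row was 6.78 to 8.46 RPKM in WT and 10.8 to 11.7 RPKM in cKO, while the defining markers Ms4a1 and Pax5 had no row. That of 7 proliferation genes was 41.1 to 44.4 RPKM in WT and 50.3 to 60.1 RPKM in cKO, highest in cKO replicate 2, as was Slc7a5, and 5 of these 7 genes had both cKO libraries above both WT libraries, where 17.3% of all genes did. The 6 heat shock genes summed to 1078 and 1595 RPKM in the WT pair and 941 and 837 RPKM in the cKO pair, with WT replicate 2 apart from the other 3 libraries, and 2 of 5 tested had both cKO libraries below both WT libraries (9.08% of all genes). The 7 immediate early genes summed to 551 and 471 RPKM in the WT pair and 482 and 398 RPKM in the cKO pair. Their differences were above 0 in 0 of 7, where 59.2% of all genes were. In 3 of 7 both cKO libraries were below both WT libraries (9.08% of all genes). The B cell and proliferation sums were higher in cKO, as Slc7a5 was, and the heat shock sum was lower. The part of these lists in the difference of Slc7a5 was not tested. The 7 myeloid markers summed to 21.9 RPKM in cKO replicate 1 against 6.50 to 10.5 RPKM in the other 3 libraries. The erythroid and platelet markers with a row, 4 of 8, summed to 31.3 RPKM in that library against 5.79 to 18.0 RPKM. The CD8 T and NK cell markers with a row, 5 of 6, summed to between 19.996 and 27.3 RPKM in WT and 26.0 to 31.5 RPKM in cKO.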

How the data were processed

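RNA-seq was measured in 4 libraries of sorted splenic Treg cells, 2 WT and 2 cKO, grouped and numbered by the labels. The authors deposited RPKM values for 19291 RefSeq transcripts in each library, a unit inferred from the numbers themselves. Per the submitters' processing notes, HISAT2, DESeq2 and the mm10 build were used, without stated roles. For the counting tool, filters and strand, nothing is stated in the labels or headers. Low values moved in whole-read steps at GENCODE M21 transcript lengths (62.7% to 64.0% of low values within 0.1 of a whole read, 20% by chance), which gave depths of 19125000 to 21230000 reads, limiting the precision of values under 1 RPKM. These percentages are partly raised because the depth was chosen to maximise them.

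The 1872 rows without a gene name (12.3% of RPKM) stayed out. The highest row stood for each of 13724 genes, and the 10413 averaging 1 RPKM or more were tested with limma 3.58.1 (R 4.3.3). The test was two-sided, on log2(RPKM + 1), with robust and trended moderation, Benjamini-Hochberg adjustment at 0.05 and genotype as its single term. The added 1 shrinks the fold of low genes. Ratios of means are of RPKM itself. The scripts were tested on simulated data. Older symbols were matched by hand (Whsc1 for Nsd2). The 8 transporters, the lists and the rules were chosen with earlier results of these data known. Genes named beside the 8 were, per list, the 2 of highest mean and the 2 of lowest p, with Nsd2, Foxp3, Slc7a11, Slc1a4, Slc7a7, Slc7a8, Myc and Atf4. Alternatives changed the pseudocount, filter, scaling, transcript row, moderation and replicate term, and left out each library. Python 3.11.15, pandas 2.3.3 and matplotlib 3.10.9 were used.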

Additional observations from a re-analysis of the deposited data

How the results depend on the processing

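Adjusted p stayed above 0.05 for all 8 transporters in each of the 10 alternatives run (lowest 0.248, for Slc7a5). Slc7a5, Slc7a1, Slc7a6 and Slc38a1 kept a difference above 0 in all 10, though with 1 library left out they ran from 0.15 to 0.31, 0.021 to 0.29, 0.019 to 0.20 and 0.017 to 0.065. With median-of-ratios scaling Slc3a2 moved to -0.0004, Slc1a5 to -0.032, Slc36a1 to -0.028 and Myc to -0.0087, and the median of the 8 to 0.018. With 1 library left out the differences ran from -0.021 to 0.092 for Slc3a2, from -0.21 to 0.22 for Slc1a5, from -0.19 to 0.053 for Slc38a2 and from -0.052 to 0.18 for Slc43a2. The median of the 8 ran from 0.024 to 0.086, and 4 to 7 of the 8 were above 0. Among 28 other named genes, 8 changed sign in an alternative. Their differences with 1 library left out ran from -0.25 to 0.15 for Slc38a10, -0.16 to 0.17 for Slc36a1, -0.21 to 0.40 for Lamtor2, -0.044 to 0.31 for Sars, -0.041 to 0.14 for Glud1, -0.071 to 0.047 for Mxd4, -0.11 to 0.16 for Myc and -0.26 to 0.098 for Foxp3. Without a change of sign, they ran from -0.20 to -0.070 for Slc15a4, -0.24 to -0.11 for Sesn3, 0.10 to 0.40 for Nprl2, -0.74 to -0.11 for Ddit4, 0.10 to 0.38 for Phgdh and 0.20 to 0.59 for Bckdk. Nsd2 passed without cKO replicate 2 (-0.86, limma's adjusted p = 0.0200). The count of genes called, 0 with all libraries, was 30 to 95 with 1 library left out, fits in which the lone library of a genotype borrows the spread of the other pair. It was 0 without trend and robust moderation. With the replicate number as a term (replicate block), 9 genes were called and 0 of the 8 transporters. The numbers share only a label: differences between replicates correlated between genotypes (r = 0.527 across genes), but with 2 pairs this does not show a pairing. The cause of these changes was not tested. Depth limits the scarce carriers under 1 RPKM, and the WT replicates of Slc7a5 and Slc38a1 differed by less than their counting error.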
